A study of Mus musculus with 16 samples.

Results

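Plaur, Plau, Plat, F3, Thbd, Procr and Thbs1 are 7 genes of plasminogen activation and blood clotting, taken by symbol, through their Ensembl identifiers, from a colon RNA-seq table of 39328 genes. The rule that took them used no measured value, but they were chosen with earlier results of these data known. All 7 were in the table. The colons came from adult wild-type mice of the outbred ICR stock. DSS_CS mice had been born by cesarean section (CS) and DSS_VD mice by vaginal delivery (VD), and both had drunk 3% dextran sulfate sodium (DSS), a sulfated polymer that injures the colon epithelium, for 8 days. CON_CS and CON_VD mice had the same births and drank normal water. Each group had 4 libraries, 16 in all. The series title concerns the colitis susceptibility of mice born by cesarean section, so the questions were how DSS moved these genes in each birth group, and whether the birth groups differed under DSS or on water. Whether each library came from its own mouse is not stated in the labels, so p-values measure the spread between these samples, which may be technical.

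Plasminogen is a circulating zymogen made mainly by the liver, and plasmin, its active form, dissolves fibrin and cleaves matrix proteins. Plau encodes urokinase, which activates plasminogen mostly at cell surfaces where its receptor, the product of Plaur, holds it, while Plat encodes tissue plasminogen activator, which acts mostly on fibrin. Clotting starts when tissue factor, the product of F3, meets factor VII of the blood. Thrombomodulin (Thbd) and the endothelial protein C receptor (Procr) limit it by turning thrombin towards the activation of protein C. Thrombospondin 1 (Thbs1) is a matrix protein released by platelets and made by many injured tissues.

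On GRCm38 with the GENCODE M21 annotation, Plaur (ENSMUSG00000046223) spans chr7:24462484-24475968, Plau (ENSMUSG00000021822) chr14:20836660-20843385 and Plat (ENSMUSG00000031538) chr8:22757727-22782844. F3 (ENSMUSG00000028128) spans chr3:121723537-121735048, Thbd (ENSMUSG00000074743) chr2:148404466-148408188, Procr (ENSMUSG00000027611) chr2:155751117-155755471 and Thbs1 (ENSMUSG00000040152) chr2:118111876-118127133. Thbd lies on the minus strand and the other 6 genes on the plus strand. Only Thbs1 shared exonic bases with another annotated gene, 208 bases with Gm29233 on the opposite strand, whose highest value was 1.50 FPKM (fragments per length of gene and per depth of library). The sources used here do not state whether the libraries kept strand.

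RefSeq promoter entries on GRCm38.p6 were matched for 3 of the 7 genes, Plaur, Procr and F3. They are shown because Plaur and Procr moved with DSS and F3 did not pass the test, as described next. The stretches end just before the annotated gene body, run 5′ to 3′ on the plus strand and cover chr7:24462233-24462482 for Plaur, chr2:155750967-155751116 for Procr and chr3:121723287-121723536 for F3. The Procr stretch is shorter, 150 bases, because its RefSeq start at 155751217 lies inside the annotated gene. Capitals mark matches to AP-1 (TGANTCA), kappaB (GGGA, any base, TT, any base, then CC, here on the minus strand) and GC box (GGGCGG) motifs.
Plaur: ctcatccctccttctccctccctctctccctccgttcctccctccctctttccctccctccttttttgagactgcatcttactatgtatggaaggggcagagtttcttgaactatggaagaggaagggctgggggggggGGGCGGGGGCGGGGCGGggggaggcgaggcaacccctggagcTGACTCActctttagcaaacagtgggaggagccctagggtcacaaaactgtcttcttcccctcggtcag
Procr: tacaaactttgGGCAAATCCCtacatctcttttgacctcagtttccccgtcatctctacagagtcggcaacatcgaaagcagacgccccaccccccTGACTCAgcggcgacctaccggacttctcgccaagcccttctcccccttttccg
F3: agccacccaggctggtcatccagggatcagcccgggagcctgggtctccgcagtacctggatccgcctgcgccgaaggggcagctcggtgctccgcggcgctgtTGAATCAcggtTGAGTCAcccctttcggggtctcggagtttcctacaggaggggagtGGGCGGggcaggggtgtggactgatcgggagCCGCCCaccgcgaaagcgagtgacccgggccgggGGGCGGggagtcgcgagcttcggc

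All 3 promoters held an AP-1 match within 250 bases of the RefSeq start, Plaur 1, Procr 1 and F3 2. Of 32851 RefSeq promoters searched on both strands over the same length, 6.75% held one. An exon of another annotated gene, Gm43823 (chr3:121721595-121723402), overlaps the F3 window. The F3 AP-1 match 146 bases before the RefSeq start lies inside that exon, and the match at 135 begins at its last base. GC box matches numbered 3 in Plaur, where the 2 nearest the start shared a base, 0 in Procr and 3 in F3, beside 32.7% of promoters with at least 1. Procr alone of the 3 had a kappaB match, as did 0.98% of promoters. TATAAA and CCAAT, searched in the same way, had no match in the 3 windows, against 12.4% and 33.8% of promoters. A match describes letters of the reference genome and says nothing of binding.

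Some libraries stood apart before any test. Pbsn, a prostate gene, was at 128 FPKM in DSS_CS replicate 3, 1355 in DSS_CS replicate 4 and 186 in CON_CS replicate 1, and at most 0.526 in the other libraries, so the CS results are also given without these 3 libraries, which leaves 2 DSS_CS and 3 CON_CS libraries. The colon epithelium list of 10 genes, among them Epcam, Krt8 and Vil1, summed to 817 to 2458 FPKM in DSS_CS, 2336 to 5014 in DSS_VD, 5165 to 5450 in CON_CS and 4514 to 5341 in CON_VD. In whole tissue, fewer cells of a type and less RNA per cell cannot be told apart. Within a group, libraries correlated with Pearson's r of 0.971 to 0.989 across genes, which are not independent replicates, and the read depth is unknown.

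Under DSS, 6 of the 7 genes were higher in both birth groups: the urokinase receptor, both plasminogen activators, thrombomodulin, the protein C receptor and thrombospondin 1. F3, which starts clotting, was not separated from its level on water in either. The tests were limma on log2(FPKM + 1), with Benjamini-Hochberg adjustment over all tested genes and a threshold of 0.05. All 7 genes passed the filter (an FPKM of at least 1 in 4 libraries) in every comparison, with 1.30 FPKM as their lowest value. The background was wide: 60.3% of 14372 tested genes passed for DSS_CS against CON_CS, 34.4% higher, and 40.9% of 13933 for DSS_VD against CON_VD, 24% higher. Ranges that did not overlap were found for 57% of tested genes in CS mice and 38.6% in VD mice. Without the libraries holding Pbsn the same 6 genes passed in CS mice. The median log2 difference was 2.63 over the 7 genes in CS mice and 1.74 in VD mice, beside 0.06 over all tested genes in each.

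**Figure D1:**
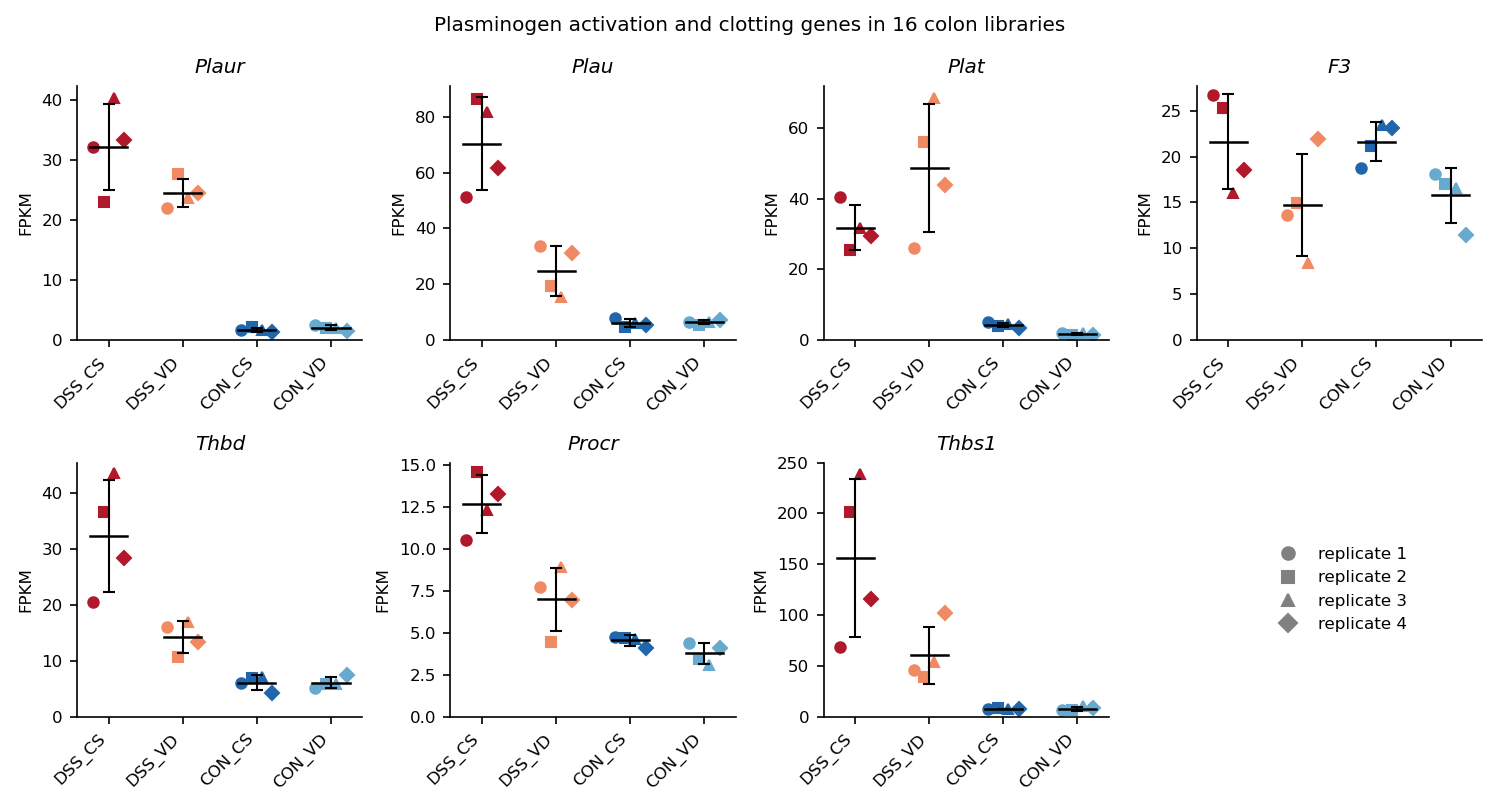
FPKM of each gene (vertical axes, from 0) in the 16 libraries by group, with the mean and SD over 4 libraries as lines and bars and marker shapes for replicates 1 to 4. DSS libraries sat above all water libraries for Plaur, Plau, Plat, Thbd and Thbs1, while F3 lay between 8.42 and 26.7 FPKM over all 16 libraries.

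Plaur had 32.1, 22.9, 40.3 and 33.2 FPKM in DSS_CS replicates 1 to 4, against 1.62, 2.10, 1.73 and 1.30 in CON_CS. The DSS_VD libraries had 22.0, 27.6, 23.6 and 24.5 FPKM, against 2.51, 1.99, 2.07 and 1.50 in CON_VD. No DSS library came near a water library, and the means stood 19.0-fold higher in CS mice and 12.1-fold higher in VD mice. On the log2 scale the differences were 3.60 ± 0.17 in CS mice (SE, adjusted p = 6.60e-07) and 3.08 ± 0.12 in VD mice (adjusted p = 4.57e-06). In VD mice no tested gene had a smaller adjusted p than Plaur.

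Plau, the urokinase gene, had 51.1, 86.3, 81.9 and 61.7 FPKM in DSS_CS, against 8.04, 4.78, 5.92 and 5.25 in CON_CS. In DSS_VD it had 33.5, 19.2, 15.3 and 31.2 FPKM, against 6.50, 5.39, 6.39 and 7.26 in CON_VD. The groups did not overlap in either birth group, and the activator of cell surface plasminogen was 11.7-fold higher by the means in CS mice and 3.88-fold higher in VD mice. The log2 differences were 3.34 ± 0.20 (SE, adjusted p = 1.94e-06) and 1.74 ± 0.24 (adjusted p = 0.000443).

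Plat, the activator that works on fibrin, had 40.4, 25.5, 31.7 and 29.4 FPKM in DSS_CS, against 5.09, 3.90, 4.51 and 3.49 in CON_CS. VD mice had 26.1, 56.1, 68.5 and 43.9 FPKM in DSS_VD, against 2.11, 1.54, 1.97 and 1.30 in CON_VD. No DSS library overlapped a water library, and unlike Plau the larger fold was in VD mice, with means 7.46-fold higher in CS mice and 28.1-fold higher in VD mice. The log2 differences were 2.63 ± 0.15 (SE, adjusted p = 1.75e-06) and 4.11 ± 0.26 (adjusted p = 1.68e-05). In VD mice 0.23% of tested genes had a larger log2 difference than Plat, against 3.1% in CS mice.

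F3 had 26.7, 25.2, 16.02 and 18.5 FPKM in DSS_CS, against 18.8, 21.1, 23.4 and 23.1 in CON_CS. Among VD mice F3 had 13.7, 15.0, 8.42 and 21.9 FPKM in DSS_VD, against 18.1, 17.0, 16.6 and 11.4 in CON_VD. DSS and water libraries overlapped in both birth groups, with the DSS libraries spread more widely than the water libraries. The log2 differences were -0.02 ± 0.16 in CS mice (SE, adjusted p = 0.909) and -0.14 ± 0.26 in VD mice (adjusted p = 0.683), so no direction was resolved at this replication.

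Thbd, which binds thrombin on endothelium, had 20.4, 36.6, 43.5 and 28.5 FPKM in DSS_CS, against 5.93, 6.97, 7.06 and 4.30 in CON_CS. Thbd values were 16.1, 10.7, 16.9 and 13.3 FPKM in DSS_VD, against 5.12, 5.74, 5.78 and 7.44 in CON_VD. Every DSS library exceeded every water library of the same birth group. The log2 differences were 2.20 ± 0.23 in CS mice (SE, adjusted p = 4.86e-05) and 1.11 ± 0.16 in VD mice (adjusted p = 0.000597).

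Procr, the partner of thrombomodulin that presents protein C, had 10.52, 14.6, 12.3 and 13.3 FPKM in DSS_CS, against 4.76, 4.70, 4.64 and 4.07 in CON_CS. In DSS_VD it had 7.72, 4.46, 8.91 and 6.95 FPKM, against 4.41, 3.44, 3.08 and 4.12 in CON_VD. The groups were apart, in VD mice by a narrow margin between DSS_VD replicate 2 and CON_VD replicate 1. The log2 differences, 1.30 ± 0.10 in CS mice (SE, adjusted p = 1.02e-05) and 0.73 ± 0.19 in VD mice (adjusted p = 0.0124), were the smallest of the 6 genes that passed.

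Thbs1 had 68.7, 201, 239 and 116 FPKM in DSS_CS, against 6.94, 8.05, 7.44 and 7.19 in CON_CS. In DSS_VD it had 46.2, 39.2, 53.4 and 102 FPKM, against 6.04, 6.60, 10.2 and 8.02 in CON_VD. All DSS libraries lay far above water, and the DSS_CS libraries were the most uneven relative to their mean of any of the 7 genes, with replicate 1 lowest. The log2 differences were 4.07 ± 0.34 in CS mice (SE, adjusted p = 1.34e-05) and 2.74 ± 0.28 in VD mice (adjusted p = 0.000132).

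The rank order within a library changed with DSS. F3 was the highest of the 7 genes in all 8 water libraries, and Thbs1 in the 4 DSS_CS libraries and in DSS_VD replicates 1 and 4. Plat was the highest in DSS_VD replicates 2 and 3. The lowest was Procr in every DSS library but DSS_VD replicate 3, where it was F3, while on water it was Plaur in CON_CS and Plat in CON_VD. Summed over the 7 genes, 249.9 to 464 FPKM were found in DSS_CS, 165 to 244 in DSS_VD, 48.8 to 54.8 in CON_CS and 41.0 to 46.1 in CON_VD. The order of levels between DSS_CS and DSS_VD, the highest groups for all but F3, is taken up next.

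Between the birth groups under DSS, Plau, Thbd and Procr were higher in DSS_CS than in DSS_VD, with means 2.83-fold, 2.26-fold and 1.81-fold higher. These 3 of 7 genes passed the test, beside 13.4% of 14313 tested genes (7.89% higher). Their DSS_CS and DSS_VD libraries did not overlap, as for 22.5% of tested genes. The log2 differences were 1.50 ± 0.28 for Plau (SE, adjusted p = 0.0313), 1.09 ± 0.24 for Thbd (adjusted p = 0.0329) and 0.80 ± 0.19 for Procr (adjusted p = 0.0358). The DSS_CS libraries are the same as in the comparison with CON_CS.

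The other 4 genes overlapped between DSS_CS and DSS_VD. Thbs1 differed by 1.30 ± 0.43 on the log2 scale (adjusted p = 0.0743), with DSS_VD replicate 4 above DSS_CS replicate 1. Plaur differed by 0.36 ± 0.17 (adjusted p = 0.171) and F3 by 0.56 ± 0.27 (adjusted p = 0.188). Plat alone had a lower mean in DSS_CS, by -0.54 ± 0.28 (adjusted p = 0.221), and DSS_VD replicate 1 lay within the DSS_CS range. A p that misses the threshold does not show that the birth groups were alike.

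The 3 calls depended on single libraries. Without DSS_VD replicate 1, DSS_VD replicate 2, DSS_CS replicate 2 or DSS_CS replicate 3, 0 of the 7 genes passed in limma, with 5, 4, 5 and 5 at an unadjusted p under 0.05. Without DSS_VD replicate 4 or DSS_CS replicate 4 only Plau passed, and without DSS_CS replicate 1 Thbs1 passed as well, making 4. Without the libraries holding Pbsn 0 passed, with 4 at an unadjusted p under 0.05, and the log2 differences of Plau, Thbd and Procr were 1.46, 0.92 and 0.78.

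**Figure D2:**
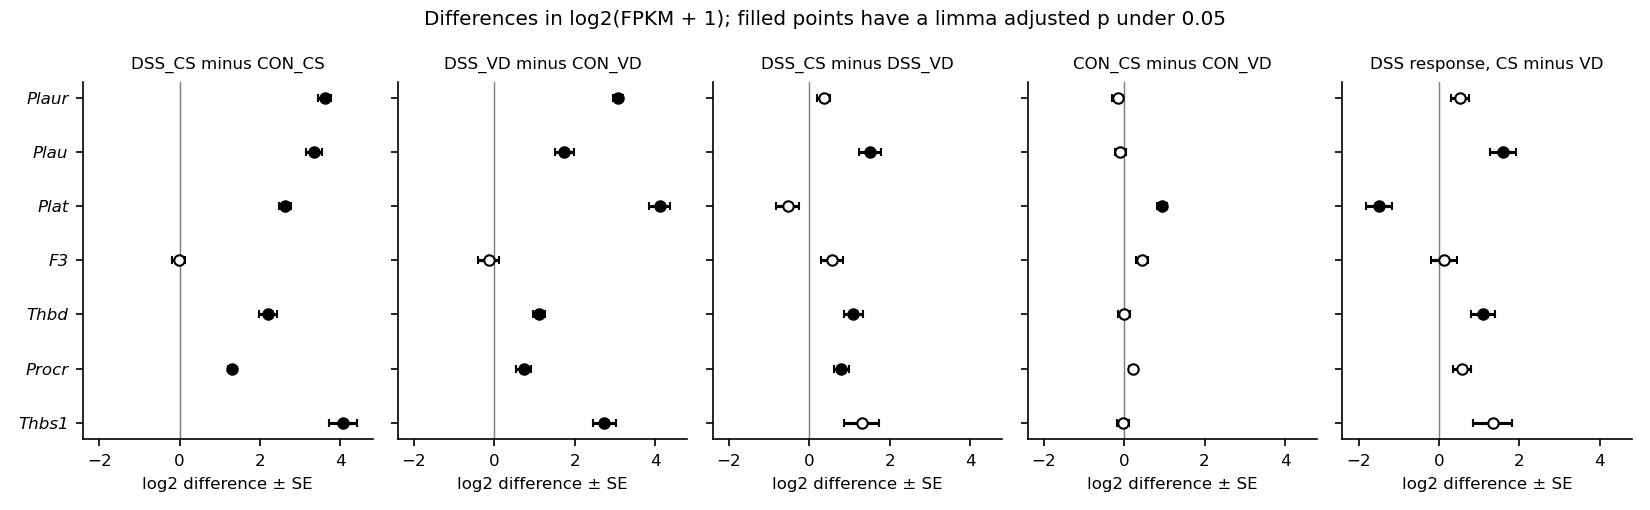
Differences in log2(FPKM + 1) ± SE for the 7 genes in 5 comparisons, with filled points where limma's adjusted p was under 0.05. DSS against water filled all points but F3 in both birth groups, and in the panel of the DSS response in CS minus VD mice Plau and Thbd are filled to the right and Plat to the left.

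On water, Plat was the only 1 of the 7 genes that passed the test between the birth groups, with a mean 2.46-fold higher in CON_CS than in CON_VD. Its libraries did not overlap, and the log2 difference was 0.94 ± 0.13 (SE, adjusted p = 0.0333). Few genes passed here, 0.407% of 13275. The call was lost without any 1 of CON_VD replicates 1, 2 and 3 and CON_CS replicates 1, 3 and 4, with 2 or 3 of the 7 genes at an unadjusted p under 0.05, and kept without CON_CS replicate 2 or CON_VD replicate 4. Over these fits the log2 difference stayed between 0.86 and 1.02.

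F3 libraries were also apart on water, with the lowest CON_CS library at 18.8 FPKM and the highest CON_VD library at 18.1, as were 10.7% of tested genes between these groups. Its log2 difference was 0.44 ± 0.14 (adjusted p = 0.168). Procr differed by 0.23 ± 0.11 (adjusted p = 0.276), Plaur by -0.16 ± 0.13 (adjusted p = 0.509) and Plau by -0.09 ± 0.15 (adjusted p = 0.749). Thbd and Thbs1 averaged 6.07 and 7.40 FPKM in CON_CS, and 6.02 and 7.71 in CON_VD, with adjusted p values of 1 and 0.923.

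The size of the DSS response was compared between the birth groups by the interaction of birth and DSS, fitted on all 16 libraries. The response of Plau was larger in CS than in VD mice by 1.60 ± 0.33 on the log2 scale (SE, adjusted p = 0.0119), and that of Thbd by 1.09 ± 0.30 (adjusted p = 0.0286). The response of Plat was smaller in CS mice, by -1.48 ± 0.32 (adjusted p = 0.0139), with DSS_VD above DSS_CS by the means and CON_VD below CON_CS. These are 3 of 7 genes, beside 13.2% of 15233 tested genes.

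The interactions of Thbs1, 1.33 ± 0.48 (adjusted p = 0.0753), Procr, 0.57 ± 0.22 (adjusted p = 0.0960), Plaur, 0.52 ± 0.21 (adjusted p = 0.111), and F3, 0.12 ± 0.32 (adjusted p = 0.838), missed the threshold. Plau and Plat passed without any single library. Thbd did not pass without CON_VD replicate 3, CON_CS replicate 4, DSS_VD replicate 2, DSS_CS replicate 2 or DSS_CS replicate 3. Without the libraries holding Pbsn, Plau passed with 1.68 (adjusted p = 0.0359), Plat reached -1.37 (adjusted p = 0.0736) and Thbd 0.91 (adjusted p = 0.123).

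Ratios of genes within a library do not depend on how the library was scaled, apart from the pseudocount. On the log2 scale, Plau over Plat was 0.33, 1.72, 1.34 and 1.04 in DSS_CS replicates 1 to 4, and 0.35, -1.50, -2.09 and -0.48 in DSS_VD. It averaged 0.40 ± 0.15 in CON_CS and 1.44 ± 0.27 in CON_VD (SD, n = 4 each). Plau thus exceeded Plat in every library but DSS_VD replicates 2, 3 and 4. In exact two-sided permutation tests the mean ratio differed by -2.37 between DSS_VD and CON_VD (p = 0.0286, adjusted p = 0.0715) and by -1.04 between CON_CS and CON_VD (exact p = 0.0286, adjusted p = 0.0715), without overlap in either. Between DSS_CS and DSS_VD it differed by 2.04 (exact p = 0.0571, adjusted p = 0.114), with DSS_VD replicate 1 inside the DSS_CS range.

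**Figure D3:**
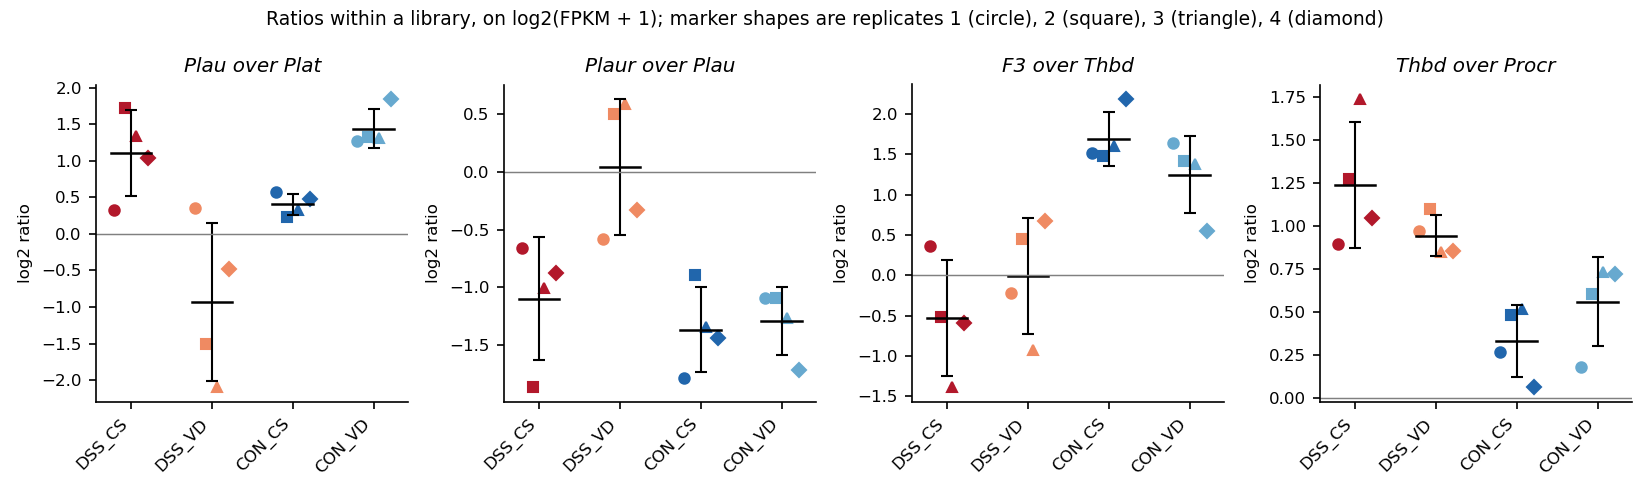
Log2 ratios of gene pairs within each library (vertical axes, on log2(FPKM + 1)) by group, with the mean and SD over 4 libraries. In the Plau over Plat panel DSS_VD replicates 2, 3 and 4 are the only libraries below 0, and in the F3 over Thbd panel all water libraries are above 0.

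F3 over Thbd, the starter of clotting over its brake, averaged -0.53 ± 0.72 in DSS_CS and 1.69 ± 0.33 in CON_CS, and -0.01 ± 0.72 in DSS_VD and 1.25 ± 0.48 in CON_VD (SD, n = 4 each). In CS mice the groups did not overlap (difference -2.23, exact p = 0.0286, adjusted p = 0.0715), and in VD mice they did (-1.26, exact p = 0.0571, adjusted p = 0.114). The mean of Thbd over Procr differed between DSS and water by 0.91 in CS mice and by 0.38 in VD mice (exact p = 0.0286, adjusted p = 0.0715 in both). Plaur over Plau differed by -1.15 between DSS_CS and DSS_VD (exact p = 0.0286, adjusted p = 0.0715). With 4 against 4 libraries 0.0286 is the smallest p the exact test can give, and none of the 20 ratio tests had an adjusted p under 0.05.

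Around these genes, 43 others of the plasminogen and clotting pathways were examined, of which 21 were tested and 22 were too low in every comparison. In DSS_CS against CON_CS 18 of 21 passed, 15 higher and 3 lower (10 of 15 without the libraries holding Pbsn), beside 60.3% of all tested genes. In DSS_VD against CON_VD 16 passed, 14 higher and 2 lower, beside 40.9%. In DSS_CS against DSS_VD 9 passed, 8 higher and 1 lower, beside 13.4%, but 0 without the libraries holding Pbsn, with 10 at an unadjusted p under 0.05. Between CON_CS and CON_VD limma called 0 of 16, with 1 at an unadjusted p under 0.05, beside 0.407% called of all tested genes. The interaction called 10, 9 higher and 1 lower, beside 13.2%, and 5 without the libraries holding Pbsn. Among others, Serpine2, F10, Vwf and F2rl3 passed the filter only through DSS libraries, so the filter itself favored a difference in them and their calls against water stand in these counts and the heat map without being support.

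**Figure D4:**
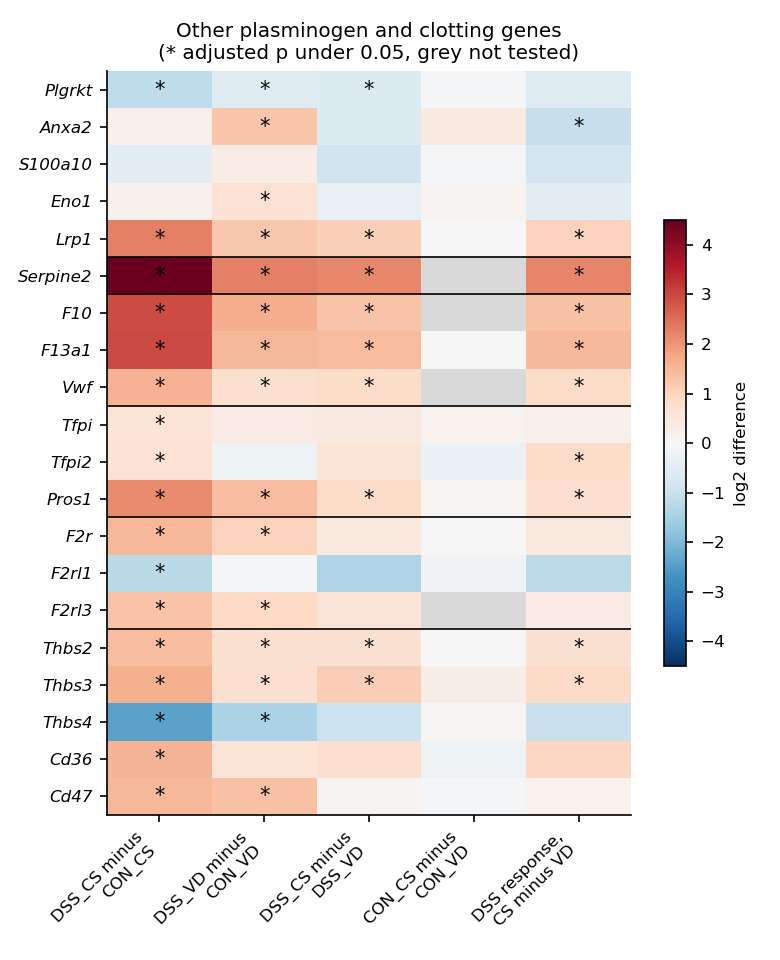
Log2 differences (color scale) of 20 of the tested pathway genes outside the 7 in 5 comparisons, with asterisks for a limma adjusted p under 0.05, grey where not tested and lines between roles. The inhibitor Serpine2 has the deepest red of those shown in DSS_CS minus CON_CS, though it passed the filter only through DSS libraries. Plgrkt and Thbs4 are blue in both comparisons of DSS with water.

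Colon RNA of Plg, encoding plasminogen, was listed at 0 in 15 libraries and at 0.0104 FPKM in DSS_CS replicate 4, and the protein, which reaches tissues with the blood, was not measured. Of 5 tested genes for its surface receptors and clearance, 1 was higher and 1 lower in DSS_CS against CON_CS, beside 60.3% of all tested genes called, and 3 were higher and 1 lower in DSS_VD against CON_VD, beside 40.9%. Lrp1, an endocytic receptor, was at 46.4 ± 5.10 FPKM in DSS_CS, 22.8 ± 7.84 in DSS_VD, 8.98 ± 1.61 in CON_CS and 8.75 ± 1.63 in CON_VD (SD, n = 4 each). It was higher in DSS_CS than in DSS_VD by 1.06 ± 0.25 (limma adjusted p = 0.0350, and 0.157 without the libraries holding Pbsn). Plgrkt, a plasminogen receptor, was lower under DSS, by -1.14 ± 0.11 in CS mice (adjusted p = 3.11e-05) and -0.58 ± 0.19 in VD mice (adjusted p = 0.0348). Of the 2 lower calls among the other pathway genes in VD mice, Plgrkt had the larger adjusted p. Only 1 lower call remained with no filter, or without any 1 of CON_VD replicates 1 to 3 and DSS_VD replicates 2 to 4. Anxa2, which assembles plasminogen with tissue plasminogen activator, rose in VD mice by 1.25 ± 0.22 (adjusted p = 0.00199), and its interaction of -1.02 ± 0.29 (adjusted p = 0.0359) was the only lower call. No lower call was made with no filter, with the replicate block, without the libraries holding Pbsn (Anxa2 adjusted p = 0.136) or in 10 of 16 fits that left out 1 library.

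Serpine2, protease nexin 1, an inhibitor of thrombin and of plasminogen activators, had 18.3, 61.7, 44.1 and 32.7 FPKM in DSS_CS and 8.96, 5.62, 4.29 and 11.7 in DSS_VD. On water it had 0.603 to 0.808 FPKM in CON_CS and 0.588 to 1.04 in CON_VD. The DSS_CS and DSS_VD libraries did not overlap. Both lay above all water libraries, an outcome that the filter favored. Serpine2 was higher in DSS_CS than in DSS_VD by 2.17 ± 0.39 (limma adjusted p = 0.0313) and its interaction was 2.18 ± 0.43 (adjusted p = 0.0112). Without the libraries holding Pbsn these adjusted p values were 0.116 and 0.0486.

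Of 14 clotting factors 3 were tested. F10, the factor that makes thrombin, was at 4.75 to 10.86 FPKM in DSS_CS, 1.64 to 3.52 in DSS_VD, at most 0.0286 in CON_CS and at most 0.0840 in CON_VD. Vwf, the endothelial and platelet adhesion protein, was at 3.89 to 5.05 FPKM in DSS_CS, 1.11 to 2.78 in DSS_VD, 0.791 to 0.895 in CON_CS and 0.682 to 0.994 in CON_VD. F13a1, the fibrin cross-linking subunit, which macrophages also make, averaged 21.6 ± 1.93 FPKM in DSS_CS, 7.70 ± 2.66 in DSS_VD, 1.91 ± 0.26 in CON_CS and 1.98 ± 0.41 in CON_VD (SD, n = 4 each). Its difference between DSS_CS and DSS_VD was 1.44 ± 0.24 (limma adjusted p = 0.0313, and 0.101 without the libraries holding Pbsn). Pros1, the cofactor of activated protein C, was higher under DSS by 2.12 ± 0.10 in CS mice (adjusted p = 7.51e-07) and 1.39 ± 0.19 in VD mice (adjusted p = 0.000442). The other tested inhibitors of clotting were Tfpi and Tfpi2. Tfpi was higher in DSS_CS than in CON_CS (limma adjusted p = 0.0465), though not under median-of-ratios scaling (0.0818) or without the libraries holding Pbsn (0.359). Tfpi2 was at 1.49 to 2.45 FPKM in DSS_CS and 0.769 to 1.21 in CON_CS. It passed the filter there through its DSS_CS libraries, which favored a difference, so its call is no support. Without the libraries holding Pbsn Tfpi2 was not tested. Neither Tfpi nor Tfpi2 passed in VD mice. F2r, a thrombin receptor, rose by 1.48 ± 0.19 in CS mice (adjusted p = 0.000138) and 1.04 ± 0.20 in VD mice (adjusted p = 0.00266).

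Of 5 tested thrombospondins and Thbs1 receptors, 4 were higher and 1 lower in DSS_CS against CON_CS, beside 60.3% of all tested genes called, and 3 higher and 1 lower in DSS_VD against CON_VD, beside 40.9%. Thbs2 and Thbs3 rose with DSS by 1.39 ± 0.14 and 1.58 ± 0.14 in CS mice (limma adjusted p = 3.53e-05 and 1.53e-05), and Thbs4, the thrombospondin of highest level on water, fell by 2.42 ± 0.27 in CS mice (adjusted p = 6.43e-05) and by 1.41 ± 0.16 in VD mice (adjusted p = 0.000191). Thbs4 averaged 17.8 ± 7.67 FPKM in DSS_CS, 33.8 ± 7.79 in DSS_VD, 92.7 ± 4.84 in CON_CS and 89.8 ± 2.45 in CON_VD (SD, n = 4 each). Cd47, a Thbs1 receptor, rose by 1.48 ± 0.08 in CS mice (adjusted p = 9.76e-07) and 1.31 ± 0.15 in VD mice (adjusted p = 0.000210). Differences between Thbs1 and these genes were not tested.

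Marker lists of cell types also differed between the groups, some higher and some lower, and their part in the results was not tested. The 10 endothelial genes, of the cell type best known for Thbd and Procr, summed to 102 to 137 FPKM in DSS_CS, 47.8 to 93.3 in DSS_VD, 26.1 to 32.7 in CON_CS and 24.4 to 28.9 in CON_VD. In limma 10 of 10 passed for DSS_CS against CON_CS (60.3% of all tested genes) and 9 for DSS_VD against CON_VD (40.9%), while DSS_CS against DSS_VD (13.4%) gave 0, with 8 at an unadjusted p under 0.05. In VD mice Robo4, at most 0.832 FPKM on water, passed the filter only through DSS libraries and is no support there. Emcn, at 0.723 to 1.095 FPKM in CON_VD, met the filter in VD mice through its DSS_VD libraries and is no support either. In CS mice Robo4 was at 0.573 to 1.09 FPKM in CON_CS, near the filter limit. The median log2 differences of the 10 endothelial genes were 1.51 and 1.14 with DSS and 0.56 between DSS_CS and DSS_VD, beside 2.20, 1.11 and 1.09 for Thbd and 1.30, 0.73 and 0.80 for Procr. Fibroblast genes summed to 1252 to 1640 FPKM in DSS_CS and 449 to 970 in DSS_VD, with 7 of 10 called higher in DSS_CS, beside 13.4% of all tested genes, but 0 of 9 without the libraries holding Pbsn (5 at an unadjusted p under 0.05). Of these, Twist2, at most 0.900 FPKM in DSS_VD, passed the filter only through DSS_CS libraries and is no support. Without the libraries holding Pbsn it was not tested. Epithelial genes were called lower in DSS_CS than in DSS_VD in 7 of 10, with a median of -1.43, in 5 under median-of-ratios scaling and in 0 without the libraries holding Pbsn (7 at an unadjusted p under 0.05, median -1.34). Neutrophil genes summed to 806 to 1449 FPKM in DSS_CS, 526.1 to 1020 in DSS_VD, 121 to 169 in CON_CS and 100.3 to 217 in CON_VD. Most of the water sums was Ly6g, averaging 111.9 FPKM in CON_CS and 102.9 in CON_VD, and Cd177, at 34.4 and 43.8. Under DSS Cd177 averaged 8.28 FPKM in DSS_CS and 6.64 in DSS_VD, and Ly6g 98.4 and 379.5. S100a8 averaged 271.9 FPKM in DSS_CS and 89.7 in DSS_VD, against at most 0.4345 on water. Between DSS_CS and DSS_VD 6 of the 10 neutrophil genes were called, 5 higher and 1, Ly6g, lower, with a median of 1.71. Without the libraries holding Pbsn 0 were called (6 at an unadjusted p under 0.05). Monocyte and macrophage genes summed to 1356 to 2112 FPKM in DSS_CS and 1110 to 1764 in DSS_VD, with 0 of 10 called between them in limma and 0 at an unadjusted p under 0.05.

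**Figure D5:**
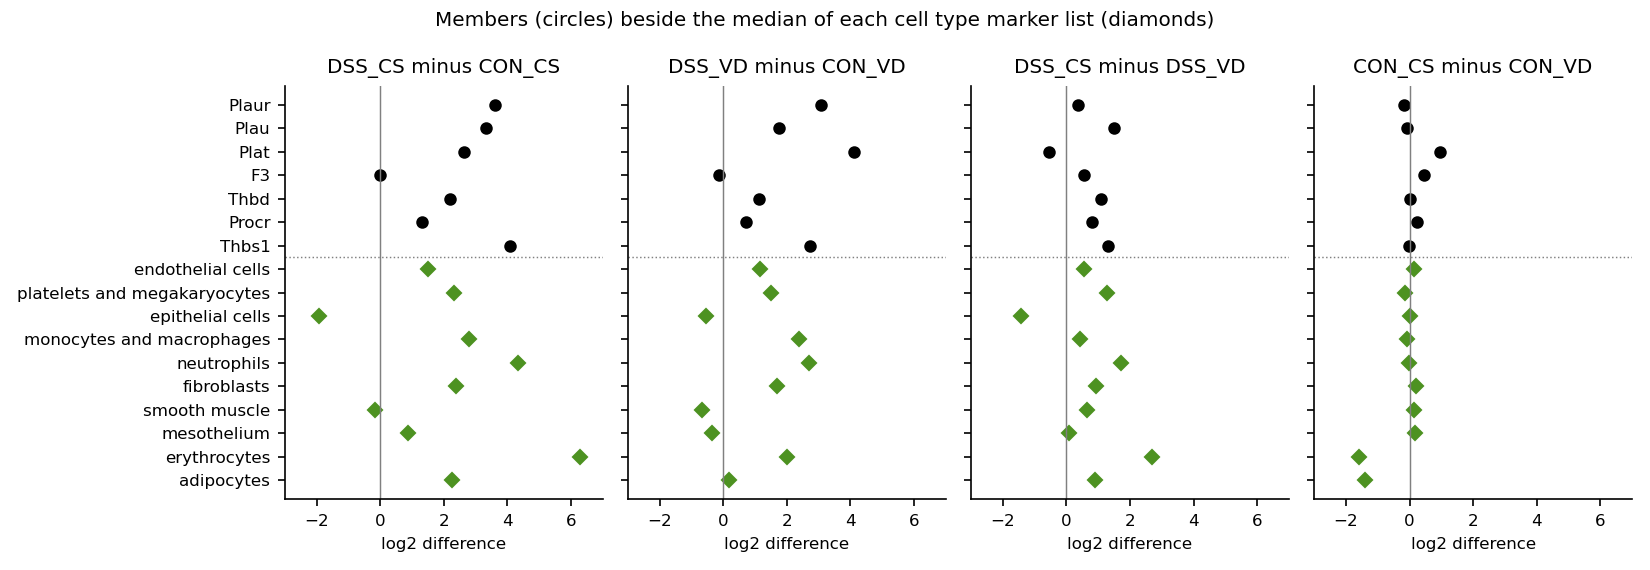
Log2 differences of the 7 genes (circles) beside the median over the tested genes of each cell type marker list (diamonds) in 4 comparisons. Epithelial medians are below 0 in all panels but CON_CS minus CON_VD, and erythrocyte genes have the highest median in the DSS_CS minus CON_CS and DSS_CS minus DSS_VD panels.

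Platelets store thrombospondin 1. The 9 platelet and megakaryocyte genes summed to 28.1 to 71.1 FPKM in DSS_CS, 9.65 to 31.3 in DSS_VD, 4.59 to 6.55 in CON_CS and 5.10 to 7.75 in CON_VD. Ppbp was listed at 0 in all CON_CS libraries and Treml1 in all CON_VD libraries. Most of each sum was 1 gene, Pf4, averaging 45.4 FPKM in DSS_CS, 19.2 in DSS_VD, 4.85 in CON_CS and 5.50 in CON_VD. Gp6, at low levels, went the other way, averaging 0.0381 FPKM in DSS_CS, 0.0316 in DSS_VD, 0.232 in CON_CS and 0.194 in CON_VD. Of the 9 genes 3 were tested in DSS_CS against CON_CS, and only Pf4 in DSS_VD against CON_VD. Erythrocyte genes summed to 903 to 9734 FPKM in DSS_CS, 241 to 975 in DSS_VD, 28.4 to 47.8 in CON_CS and 53.6 to 332 in CON_VD. Their part in the Thbs1 values was not tested.

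Likeness to other genes was measured as the root-mean-square difference of log2(FPKM + 1) over the 16 libraries, each gene centred on its own mean, among 13140 genes. The genes most like Plaur were Sema7a (0.26), Marcksl1 (0.28) and Csf2rb (0.31). For Plau they were Inhba (0.31), Ednrb (0.31) and Olfml2b (0.34), and for Plat Marcksl1 (0.46), Pfkfb3 (0.47) and Steap4 (0.53). For Thbd they were Col5a3 (0.19), Col6a2 (0.19) and Adamts7 (0.20), where Col5a3 and Col6a2 encode collagen chains. For Procr they were Chpf2 (0.11), Acvrl1 (0.13) and Camkk2 (0.14), and for Thbs1 Bdkrb1 (0.29) and Adamts1 (0.30). F3, whose own spread was small at 0.40, was nearest to Mid1ip1 (0.24), Pnck (0.27) and Ctxn1 (0.28).

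Among the 7 genes themselves the closest pair was Thbd and Procr, with 0.41, followed by Plau and Thbd with 0.57 and Plaur and Plat with 0.58. The 2 activators, Plau and Plat, stood 1.06 apart, and F3 and Thbs1 were the farthest pair with 1.85. These values describe the 16 libraries, which fall into DSS and water libraries, and carry no test.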

How the data were processed

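RNA-seq of colon was measured in 16 libraries, grouped by the labels. The authors deposited 1 table of FPKM. The submitters' processing notes list cutadapt, FastQC and GRCm38, with no version, and the labels' protocols give a Trizol extraction. An aligner, a quantifier and an annotation were not given in the sources used here. FPKM sums per library were 280135 to 343423. Values of 16959 genes under 0.3 FPKM did not fall on whole-read steps (at most 0.978% of ratios between a pair of libraries shared 1 value), so read counts and depth are unknown. Of 39328 identifiers, 39181 matched a symbol and 147 did not.

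Log2(FPKM + 1) was fitted with limma 3.58.1 in R 4.3.3 (intensity trend; FPKM of at least 1 in at least 4 fitted libraries; two-sided, Benjamini-Hochberg over all tested genes, threshold 0.05). This scale understates changes of low genes. Comparisons used their own 8 libraries, and the interaction all 16. Ratios used exact permutation tests in scipy 1.17.1, adjusted over 20 tests. Fits were tested on simulated data. Promoters came from the RefSeq table and positions from GENCODE M21. The genes and lists were chosen with earlier results of these data known. Named pathway genes were under the threshold, up to 6 of smallest p per role and comparison, and up to 3 alike genes were named per gene; Plg and genes named for marker levels are named for their level. A gene that these rules take is not reported here. Alternatives changed the pseudocount, filter, scaling, variance prior, libraries fitted and replicate block. The count of other pathway genes under each was added after seeing the data. Same-numbered libraries did not deviate together (r of deviations from group means -0.278 to 0.128), so numbers were not taken as pairs.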

Additional observations from a re-analysis of the deposited data

Results flagged for a closer look

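In 3 of the 7 genes the DSS response differed between the birth groups by the interaction test on 16 libraries. Plau responded more in CS than in VD mice, by 1.60 on the log2 scale. Plat responded less in CS than in VD mice, by -1.48. Thbd responded more in CS than in VD mice, by 1.09. No gene had a library far from the other 3 of its group by Dixon's test, in 0 of 28 groups, where chance flags about 1 in 20. The causes were not tested.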

How the results depend on the processing

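For DSS against water, 6 of the 7 genes passed in either birth group under every alternative run, with all genes called moving between 4910 and 10979 in CS mice (8666 as reported) and 3208 and 7107 in VD mice (5704). In DSS_CS against DSS_VD the 3 calls became 0 with no filter, 0 with the replicate block and 0 without the libraries holding Pbsn (4, 5 and 4 at an unadjusted p under 0.05), 4 in 1 fit on all 16 libraries, and 0 to 4 on leaving out 1 library. All genes called there ranged from 0 to 3871 (1923 as reported), and the other pathway genes from 0 to 16 (9). In CON_CS against CON_VD the 1 call became 0 with no filter, with a mean FPKM of at least 5 (which left out Plaur, Plat and Procr), with the replicate block, in 1 fit on all 16 libraries and without the libraries holding Pbsn (2, 1, 2, 1 and 2 unadjusted), and 0 to 1 on leaving out 1 library; all genes called ranged from 0 to 275 (54). The interaction's 3 calls became 1 without the libraries holding Pbsn, 2 with no filter and 2 under TPM scaling (Thbd adjusted p = 0.0665 and 0.0626), and 2 to 4 on leaving out 1 library; all genes called ranged from 637 to 2515 (2015) and the other pathway genes from 4 to 14 (10). The cause was not tested.

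Replicate numbers did not pair the libraries: 1, 3, 1 and 0 of 8 libraries correlated best with their own number, in the order DSS_CS against CON_CS, DSS_VD against CON_VD, DSS_CS against DSS_VD and CON_CS against CON_VD. With the replicate block Plau, Thbd and Procr had adjusted p values of 0.0871, 0.0868 and 0.0939 between DSS_CS and DSS_VD, and the block changed no call of the 7 genes with DSS or in the interaction. Median-of-ratios scaling moved the median of all genes in DSS_CS against CON_CS to -0.05, against 0.06 as deposited.

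Directions turned only for differences near 0. F3 in DSS_CS against CON_CS was 0.022 under TPM scaling and 0.19 without the libraries holding Pbsn, and -0.13 to 0.10 on leaving out 1 library. F3 in DSS_VD against CON_VD was -0.35 to 0.079 and its interaction -0.10 to 0.32 on leaving out 1 library. In CON_CS against CON_VD, Thbd was 0.093 under TPM scaling, 0.0025 without the libraries holding Pbsn and -0.070 to 0.13 on leaving out 1 library, and Thbs1 was 0.065 under TPM scaling and -0.12 to 0.10 on leaving out 1 library. Of 634 values of single genes under alternatives, 569 kept direction and side of the threshold, 44 lost the threshold, 6 passed it and 15 turned. Depth was unknown, so no counting error could be given.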

Other observations

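Serpinb2, encoding an inhibitor of plasminogen activators, was too low to test and was chosen after its values were seen. It had 2.29, 0.336, 8.76 and 2.40 FPKM in DSS_CS, and 0.244, 0.113, 0.537 and 0.0846 in DSS_VD. On water it was listed at 0 in 3 CON_CS libraries and 2 CON_VD libraries, with 0.0984 FPKM as the highest value. The DSS_CS and DSS_VD libraries overlapped through DSS_CS replicate 2. F2rl1, a protease-activated receptor of epithelium, had 18.2, 4.43, 6.58 and 7.92 FPKM in DSS_CS, 34.3, 24.9, 18.8 and 14.9 in DSS_VD, 15.6 to 24.2 in CON_CS and 15.5 to 32.0 in CON_VD, and fell by 1.23 ± 0.34 on the log2 scale in CS mice (limma adjusted p = 0.0129), and by 0.995 without the libraries holding Pbsn (adjusted p = 0.180). S100a10, the partner of annexin A2, averaged 208 FPKM in DSS_CS, 388 in DSS_VD, 293 in CON_CS and 303 in CON_VD and passed no comparison on the deposited scale. Under median-of-ratios scaling it fell by 0.65 in CS mice (limma adjusted p = 0.0268).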
